A study of Mus musculus with 3 samples.

Results

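Tcf21 and Hic1 are transcription factors of kidney mesenchyme, and both were lower in GFP+ than in GFP- cells of the embryonic mouse kidney on every array. They are 2 of the 3915 genes with 1 symbol and a value on all 3 arrays, and each was measured by 1 probe. Both were picked by symbol with these ratios already known, so their own ratios are given as a description, without a test. Each of 3 two-colour arrays compared RNA of GFP+ cells, in channel 1, with RNA of GFP- cells, in channel 2. The cells were sorted by fluorescence from kidneys of HoxB7-GFP transgenic mouse embryos at 15.5 days post coitum, with both sexes pooled. The HoxB7-GFP transgene marks the ureteric tree, so the GFP- fraction held every kidney cell without the reporter, and both fractions carried the transgene. No dye swap was made and the dyes are not stated, so the direction, GFP+ over GFP-, is the likely one from the order of the channels and the titles. Higher and lower are given in that direction throughout.

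The ureteric tree branches inside a mesenchyme that gives rise to the nephrons and to the interstitium, or stroma, between them. Tcf21, also called Pod1, is a basic helix-loop-helix protein that binds DNA at E-box motifs as a dimer with class I partners such as Tcf3, Tcf4 and Tcf12. In mouse kidney it is expressed in interstitial mesenchyme and in podocytes, the filtering cells of the glomerulus, and its loss impairs both branching and glomerular development. Hic1, named for its hypermethylation in cancer, is a transcriptional repressor with a BTB domain and zinc fingers that recruits CtBP, and it marks mesenchymal progenitors in several mouse tissues.

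The bases upstream of the members' start sites in RefSeq (GRCm38.p6) are shown first, as a description, and the members differ in base composition there. A link between these bases and the ratios was not tested. Each line gives the 250 bases before a start, 5′ to 3′ on the gene's strand. Capitals mark matches on either strand to the E-box CANNTG, to CCAAT, or to the GC box CCGCCC, and no match overlapped another. Both genes lie on the minus strand, Tcf21 at chr10:22820144-22820393 and Hic1 at chr11:75170256-75170505 for its first listed start and chr11:75168153-75168402 for its second.
Tcf21: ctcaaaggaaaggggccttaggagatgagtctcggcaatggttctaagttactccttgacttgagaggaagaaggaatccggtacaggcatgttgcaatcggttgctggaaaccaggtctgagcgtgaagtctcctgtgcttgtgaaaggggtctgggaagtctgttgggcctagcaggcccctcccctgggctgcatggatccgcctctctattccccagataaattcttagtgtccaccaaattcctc
Hic1 start 1: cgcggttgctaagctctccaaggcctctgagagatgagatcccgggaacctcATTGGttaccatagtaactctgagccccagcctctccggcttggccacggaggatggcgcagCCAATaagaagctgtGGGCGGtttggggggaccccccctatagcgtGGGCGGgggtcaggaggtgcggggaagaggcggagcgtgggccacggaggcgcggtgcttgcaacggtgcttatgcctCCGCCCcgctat
Hic1 start 2: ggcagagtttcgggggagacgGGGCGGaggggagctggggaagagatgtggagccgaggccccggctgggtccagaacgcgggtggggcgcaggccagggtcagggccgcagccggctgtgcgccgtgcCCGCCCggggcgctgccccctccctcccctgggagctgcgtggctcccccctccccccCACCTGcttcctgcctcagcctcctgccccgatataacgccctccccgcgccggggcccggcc
The Tcf21 window held none of the 3 motifs, and its GC content of 52.4% equalled the median of 52.4% over all 32851 RefSeq promoter windows. Hic1 start 1 held 2 CCAAT and 3 GC-box matches at a GC content of 64.4%, and start 2 held 1 E-box, as CACCTG, and 2 GC boxes at 77.2%. The Hic1 windows had 18 and 22 CG dinucleotides, against 5 for Tcf21 and a median of 6. Among all windows, 66.2% held an E-box, 33.8% a CCAAT and 32.7% a GC box, so each motif is common at this length. A match is a description of letters, and absence from this window says nothing of what binds elsewhere.

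The log2 ratio of Tcf21 was -2.29 on array 1, -1.94 on array 2 and -1.58 on array 3. All 3 arrays put it well below the bulk of genes. The corresponding folds were 4.88, 3.85 and 2.99 lower in GFP+ cells, with a mean log2 ratio of -1.94 ± 0.35 (SD, n = 3 arrays) or 3.83-fold. Tcf21 ranked 16th from the lowest mean of 3915 genes, and its ranks by array were 10, 30 and 27. Its neighbours in that order were Mrc1, a mannose receptor of macrophages (-1.96 ± 0.28), and Mcm9 (-1.93 ± 0.83), adjacent to it by construction of the ranking.

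The log2 ratio of Hic1 was -1.69 on array 1, -0.93 on array 2 and -0.82 on array 3. Array 1 thus stood apart from the other pair, at 3.22-fold lower against 1.90-fold and 1.77-fold. The mean was -1.15 ± 0.47 (SD, n = 3 arrays), or 2.21-fold, and ranked 54th from the lowest. By array the ranks of Hic1 were 27, 264 and 150. Without array 1 the mean of Hic1 was -0.88 and its rank 215, against a rank of 46 without array 2 and 48 without array 3. For Tcf21 the rank without an array lay between 14 and 24, and its lowest and highest means were -2.11 and -1.76. Across all genes the median SD was 0.31; 81.7% of genes had a smaller SD than Hic1, and 60.5% a smaller one than Tcf21.

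On each array Tcf21 was lower than Hic1, by 0.60, 1.01 and 0.76 on the log2 scale, and the mean difference of ratios was -0.79 ± 0.21 (SD, n = 3 arrays). Over all arrays the values of the 2 genes overlapped, since Hic1 on array 1 (-1.69) was below Tcf21 on array 3 (-1.58). These are differences of ratios and set no expression level of one probe against the other. Negative values on all 3 arrays, which both members had, were found for 598 genes (15.3%). Both members had their lowest value on array 1, as did 58.8% of all genes.

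**Figure D1:**
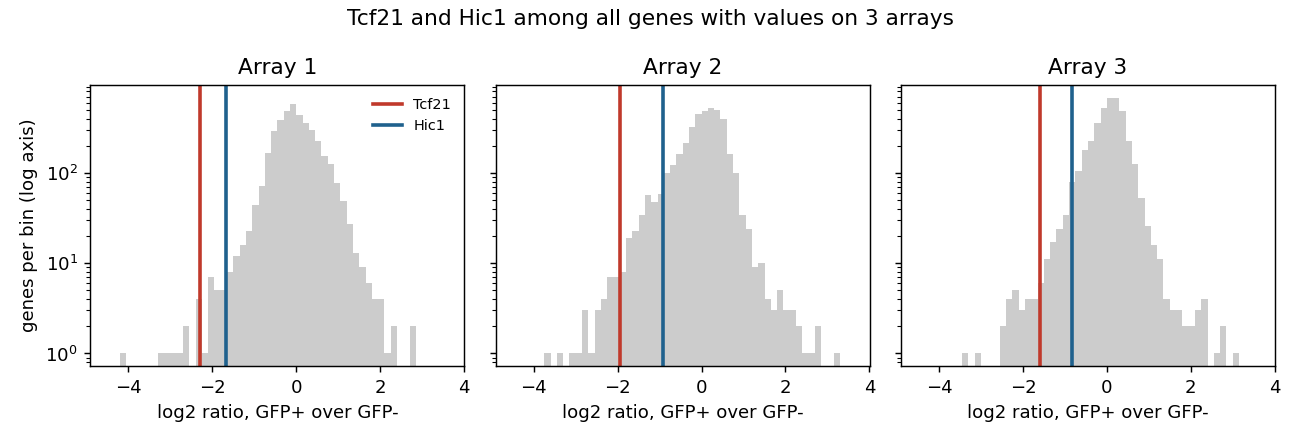
Distribution of log2 ratios (GFP+ over GFP-, horizontal axis) over the 3915 genes with values on all 3 arrays, 1 panel per array, with the number of genes per bin on a log axis. Vertical lines mark Tcf21 (-2.29, -1.94 and -1.58) and Hic1 (-1.69, -0.93 and -0.82), both left of the main mass on every array.

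The ratios of array 1 followed those of the others only loosely. Over the 4399 gene probes with values on all 3 arrays, Pearson's r was 0.0765 between arrays 1 and 2, 0.274 between arrays 1 and 3, and 0.879 between arrays 2 and 3, as a description across probes that are not independent. Nothing in the labels ties the arrays to separate pools of embryos, so the p-values below cover array-to-array spread alone, which may be technical. Without a dye swap, a dye effect on a single probe and a difference between the fractions cannot be told apart. In sorted populations, fewer cells of a type and less RNA per cell cannot be told apart.

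The genes most like each member were found by Euclidean distance over the 3 log2 ratios among the 3915 genes, with clone and model names left out. Nearest to Hic1 were Fbln1, an extracellular matrix protein (distance 0.027), and Cited1, a coactivator of nephron progenitors (0.091). Rspo3, a secreted Wnt agonist (0.099), Pcolce, which enhances procollagen processing (0.16), and Anxa6, an annexin (0.25), came next. Fbln1 was -1.69, -0.95 and -0.84 on arrays 1, 2 and 3, and Cited1 -1.72, -0.92 and -0.91. Each of these 5 genes also had its lowest value on array 1, which closeness to Hic1 over the 3 ratios favours. Of all genes, 58.8% had their lowest value there. These genes were picked for ratios close to those of Hic1. Their low values thus follow from the choice, and no test of them is given.

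The genes nearest to Tcf21 lay farther away and mark several cell types. They were the embryonic globin Hba-x (0.50), the leukocyte lysosomal protein Laptm5 (0.57), the stromal proteoglycan Dcn (0.60), the adhesion molecule Clmp (0.62) and the erythroid heme enzyme Alas2 (0.67). Dcn was -1.90, -1.52 and -1.41 on arrays 1, 2 and 3, in the same order as Tcf21, whereas Laptm5 was nearly level at -1.81, -1.88 and -1.88. Hic1 was 43rd in distance from Tcf21, at 1.40, with clone and model names left out of that order. Likeness of 3 ratios says only that these genes were low to a similar degree in the GFP+ fraction.

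**Figure D2:**
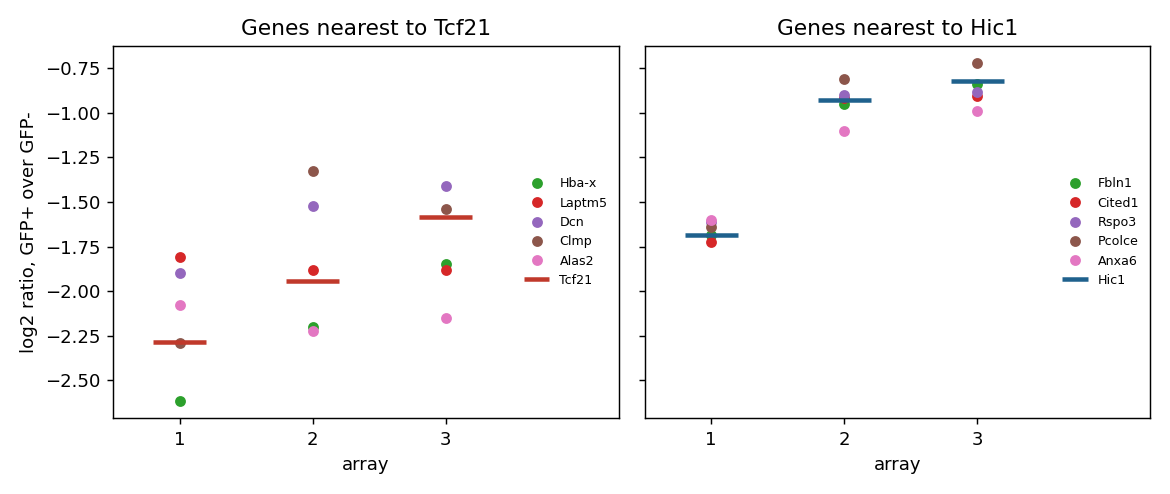
Log2 ratios (GFP+ over GFP-, vertical axis) on arrays 1, 2 and 3 of the 5 genes nearest to Tcf21 (left) and to Hic1 (right), as points, with the member itself as a horizontal bar. Genes near Hic1 lie at a distance of 0.027 to 0.25, while those near Tcf21 lie at 0.50 to 0.67. The low value on array 1 that the former share with Hic1 follows from their choice by distance.

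Other transcription factors of mesenchyme were listed to show how far the pattern of the members extended. Besides the members, 48 factors were listed, of which 46 had a probe and 9 were measured on every array. Calls are by limma with Benjamini-Hochberg adjustment over all genes. By limma, 1 of these 9 was lower and 0 were higher (1.4% of all 3915 genes were lower and 1.38% higher). At an unadjusted p below 0.05, 3 were lower and 0 higher. The share of all genes past that unadjusted threshold was not counted. Unadjusted counts of listed genes, here and below, thus have no background beside them. Without array 1, 3 were called lower and 2 higher, where 738 and 1080 of all 3915 genes were. The median of the 9 factors was -0.13, against 0.034 over all genes. The factor that fell was Nfia, a nuclear factor I protein, with -1.52, -1.23 and -1.30 on the 3 arrays, a mean of -1.35 ± 0.15 and an adjusted p of 0.0128. Its relatives Nfib (0.050 ± 0.36) and Nfix (-0.15 ± 0.09) did not pass, and the difference between relatives was not tested.

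Zeb1, a zinc finger repressor of epithelial genes, was -1.33, -0.43 and -0.69 on the 3 arrays and did not pass (limma adjusted p = 0.159). It passed without array 1 (0.0119) and without array 2 (0.0366), so that call rests on which arrays are used. Hoxa11, a homeobox gene of the metanephric mesenchyme, had -0.46 ± 0.23, and Osr1, an early factor of the nephric mesenchyme, 0.17 ± 0.28. Klf4 (0.31 ± 0.49), Srf (-0.13 ± 0.52) and Lef1 (0.14 ± 0.22) did not pass either. Foxd1, the defining factor of the renal stroma, had no value on any array.

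Several factors as low as the members had values on 2 arrays only. Nr2f2, a nuclear receptor of mesenchyme also called COUP-TFII, was -2.07 and -1.93 on arrays 2 and 3. Foxc2, a forkhead factor of podocytes and mesenchyme, was -1.80 and -1.75 there. The homeobox genes Hoxa10 (-1.38 and -2.16) and Hoxd10 (-1.50 and -1.37) completed the group measured low on arrays 2 and 3 and not on array 1. Of 339 genes with values on those arrays only, 21 (6.19%) were below -1 on both. When genes with values on at least 2 arrays were fitted together by limma, these 4 factors passed, with adjusted p of 0.0137 for Nr2f2, 0.0188 for Foxc2, 0.0374 for Hoxa10 and 0.0351 for Hoxd10. That setting called 5 listed factors lower in place of 1, while 80 of 4745 genes (1.69%) were lower in all. The p-values of the 4 rest on arrays 2 and 3 alone, whose ratios were close (Pearson's r = 0.879 over probes). Over the 3915 genes, leaving out array 1 raised the lower calls from 55 to 738. The share called among the 339 genes on arrays 2 and 3 only was not counted.

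Prrx2 (-0.37 and -0.24 on arrays 1 and 3), Mef2c (-0.45 and 0.047 on arrays 1 and 2) and Gli2 (0.024 and 0.096 on arrays 1 and 3) were the others on 2 arrays, and none of these passed. Of the 7 factors on 2 arrays, 5 were negative on both, where 28.5% of 827 such genes were. A further 8 factors had a value on 1 array, and all 8 of these values were negative, where 57.8% of 902 such genes were. Twist1, a helix-loop-helix relative of Tcf21, was -1.42 and Foxc1, a relative of Foxc2, -1.36, both on array 3 alone. The others on array 3 alone were Tcf7l2 (-0.65), Pbx3 (-0.25), Snai2 (-0.21) and Tbx18 (-0.050), and on array 1 alone Gli1 (-0.56) and Hoxd11 (-0.38). Values from 1 array carry no error and were not tested.

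**Figure D3:**
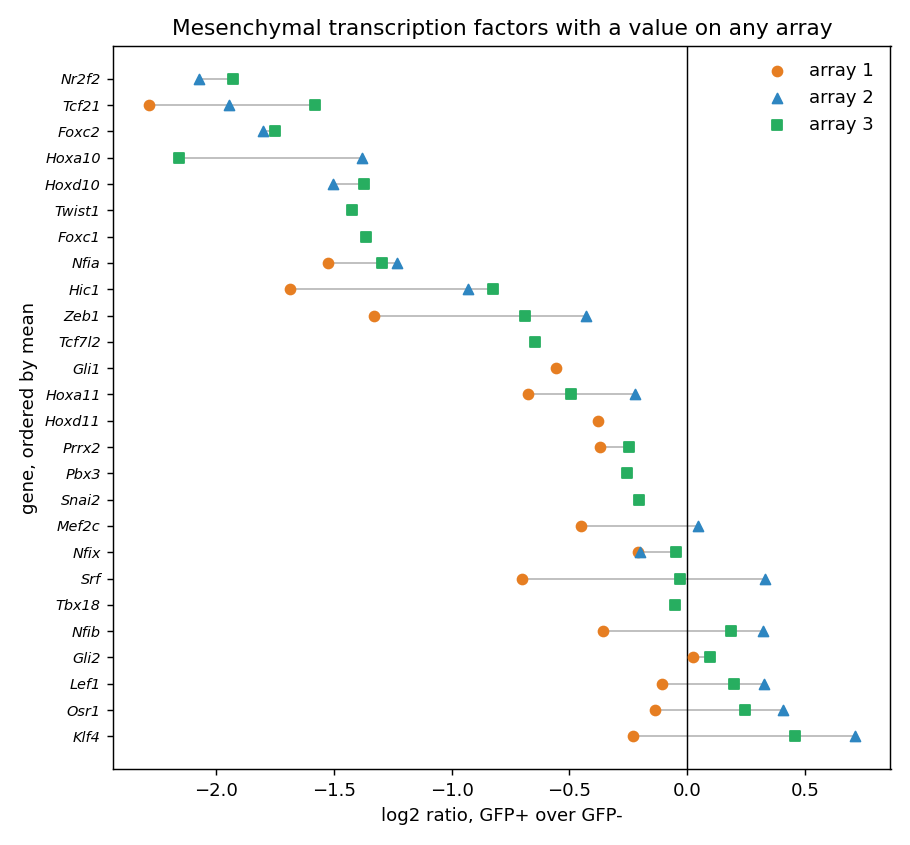
Log2 ratios (GFP+ over GFP-, horizontal axis) of the mesenchymal transcription factors with a value on any array, ordered by mean, with 1 marker per array and a line from the lowest to the highest. Tcf21 (-1.58 to -2.29) and Nr2f2 (-1.93 and -2.07) lie lowest, Nfia and Hic1 are in the lower part, and Klf4, Osr1 and Lef1 span 0.

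The dimer partners and relatives of Tcf21 gave no call. Of 32 listed helix-loop-helix genes, 29 had a probe and 11 were measured on every array, and 0 of these passed in limma in either direction, with 2 higher and 2 lower at an unadjusted p below 0.05 and 0 by an ordinary one-sample statistic after adjustment. The median was 0.028, near that of all genes. Tcf4, a class I partner, had -0.32 ± 0.26, and Tcf12 had -0.33 and 0.18 on arrays 1 and 3. Tcf3 had no value on any array. The Id proteins, which bind class I partners and keep them from DNA, had means of 0.42 ± 0.32 for Id1, 0.68 ± 0.41 for Id2 and 0.34 ± 0.17 for Id3, positive on each array. Lyl1, a relative of blood and endothelial cells, had -0.74 ± 0.55, and the Notch target Hey1 -0.56 ± 0.10. Bhlhe40 had 0.54 ± 0.49. Without array 1, 4 of the 11 were higher and 2 lower; at that setting 1080 genes of the 3915 rose and 738 fell.

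Partners and reported targets of HIC1 lay around 0 as well. Of 29 listed genes, 24 had a probe and 13 were measured on every array, with 1 lower and 0 higher by limma (1.4% and 1.38% of all 3915 genes) and a median of 0.052. The gene that fell was Cdkn1c, a cyclin-dependent kinase inhibitor, at -1.02, -1.01 and -0.74 (mean -0.92 ± 0.16, adjusted p = 0.0436). It did not pass without array 2 (limma adjusted p = 0.117) or without array 3 (0.279). The corepressor Ctbp1 was 0.71 on array 1 and -0.76 and -0.42 on arrays 2 and 3, so its mean of -0.16 ± 0.77 joins values of opposite sign. Ctbp2 had 0.25 ± 0.25. Sirt1, a deacetylase gene repressed by HIC1 in human cells, was -0.28, 0.30 and 0.14, with a mean of 0.052 ± 0.30 (adjusted p = 0.909). Ackr3, a chemokine receptor reported as a HIC1 target, had the highest mean, 0.64 ± 0.19 (adjusted p = 0.144). Mta1, of the NuRD complex, had -0.36 ± 0.28 and the cyclin Ccnd1 0.33 ± 0.09. Rbbp7, another NuRD component, was -1.56 and -0.78 on arrays 2 and 3, Efna1 was -0.099 on array 2 alone, and Hic2, the closest relative of Hic1, had no value. The fit without array 1 called 5 of the 13 higher and 4 lower. Calls were common in that fit, with 1080 genes higher and 738 lower among the 3915.

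Podocyte genes were checked because Tcf21 is known from these cells. Besides Tcf21, 13 regulators were listed, 10 had a probe and 2 were measured on every array. Both fell by limma, where 1.4% of all 3915 genes did. Wt1, a zinc finger factor of nephron progenitors and podocytes, was -1.85, -1.14 and -1.28, a mean of -1.42 ± 0.37 (adjusted p = 0.0232), and the other was Cdkn1c. Of 24 structural genes of podocytes, 20 had a probe, 5 were measured on every array and 0 passed by limma, with 1 lower at an unadjusted p below 0.05 and 0 by the ordinary statistic after adjustment. Podxl, the main sialoprotein of podocyte foot processes, had 0.017 ± 0.31, Vegfa 0.21 ± 0.03 and the actinin Actn4 -0.37 ± 0.22. Anxa2 was -0.49, -1.43 and -1.25 and did not pass (adjusted p = 0.0831), though it did without array 1 (0.000955). Nes, an intermediate filament, was -0.60 and 0.36 on arrays 1 and 2. Nphs1, which encodes nephrin and defines the slit diaphragm, had no value on any array. Both regulators that fell are also expressed outside podocytes, Wt1 in nephron progenitors and Cdkn1c in several cell types.

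Several stromal matrix and mural genes were as low as the members. Of 35 listed matrix genes, 33 had a probe and 9 were measured on every array; 5 of the 9 fell by limma and 0 rose, where 1.4% of all 3915 genes fell and 1.38% rose. Their median was -1.16. They were Mgp (-2.46 ± 0.62), Tgfbi (-2.30 ± 0.40), Dcn (-1.61 ± 0.26), Sparc (-1.16 ± 0.17) and Col5a2 (-1.10 ± 0.35). Sparc and Col5a2 did not pass without array 3 (limma adjusted p = 0.0564 and 0.249). Among mural and fibroblast genes 3 of 6 fell and 0 rose, with a median of -1.39. These were Penk, an enkephalin precursor (-2.90 ± 0.89), and the contractile genes Tpm2 (-2.21 ± 0.17) and Myl9 (-1.83 ± 0.25). The intermediate filament gene Vim was -1.45, -0.61 and -0.81 and did not reach the threshold. The receptors Pdgfra and Pdgfrb, which define fibroblasts and pericytes, had no value on any array.

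Over both sets together, 8 of 15 genes fell (1.4% of all 3915 genes did), 8 had a mean below that of Hic1 and 4 below that of Tcf21. Both lists were chosen with earlier results of these data known. How far that choice raised these shares was not tested. Tcf21 thus lay among matrix and contractile genes in size, and Hic1 near the middle of them. Without arrays 1, 2 and 3 in turn, 11, 11 and 7 of the 15 were lower, where 738, 70 and 51 of all 3915 genes were. Without array 1, 2 mural genes were also called higher, where 1080 of all 3915 genes were.

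Among 10 measured signals of the mesenchyme and their modulators, 1 was lower and 0 higher by limma (all genes, 1.4% and 1.38%), and the median was 0.0025. Without array 1, 3 were lower and 3 higher, where 738 and 1080 of all 3915 genes were. Sfrp1, a secreted Wnt antagonist, was -1.57, -1.27 and -1.41 and fell (adjusted p = 0.0105), with a mean of -1.42 ± 0.15 between those of Tcf21 and Hic1. Dchs1, a protocadherin, was -0.18, -1.68 and -1.14 and did not pass (limma adjusted p = 0.201). Bmp7 had 0.71 ± 0.28. Bmp4, a ligand of the mesenchyme around the ureteric stalk, was 0.26 on array 1 and -0.74 on array 3, and Gdnf, the mesenchymal ligand of Ret, had no value. Of 6 measured genes of the retinoic acid pathway, a route by which stroma acts on the ureteric tips, 0 passed by limma, with 2 higher and 0 lower at an unadjusted p below 0.05 and 0 by the ordinary statistic after adjustment. Aldh1a2, the stromal enzyme of retinoic acid synthesis, had -0.21 ± 0.35, and Aldh1a3 0.69 ± 0.22. The fit without array 1 called 2 of the 6 higher and 1 lower, beside 1080 higher and 738 lower calls among the 3915 genes.

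**Figure D4:**
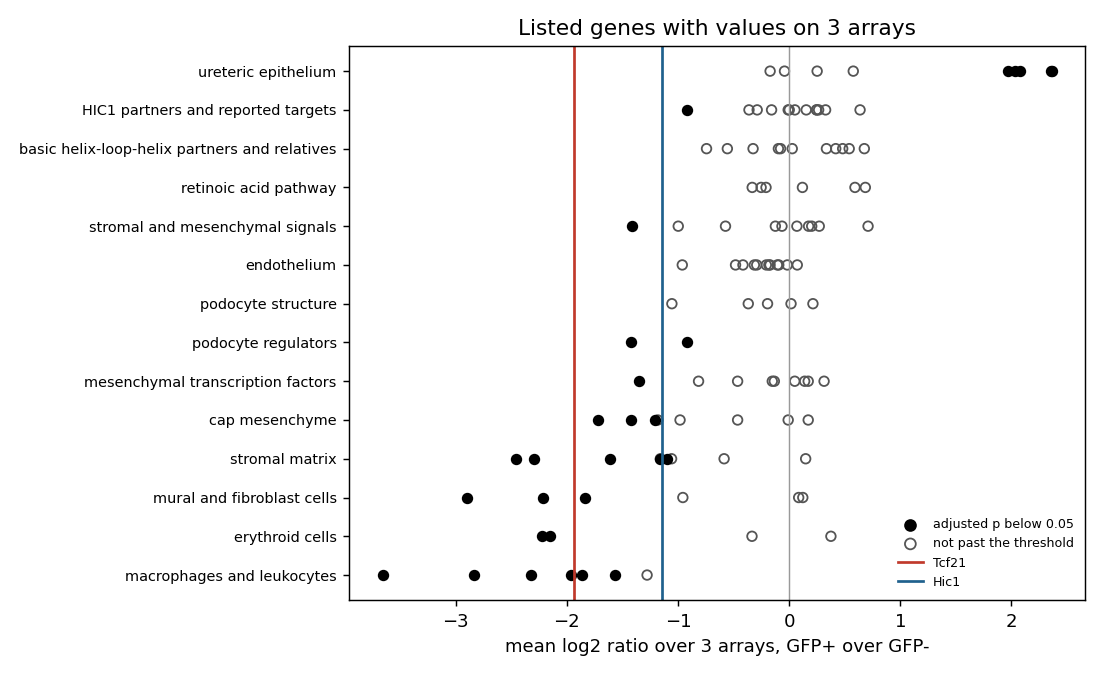
Mean log2 ratio over 3 arrays (GFP+ over GFP-, horizontal axis) of each listed gene with values on all 3 arrays, 1 row per list; filled points passed limma at an adjusted p below 0.05. Vertical lines mark Tcf21 (-1.94) and Hic1 (-1.15); the stromal matrix, mural and erythroid rows hold genes on both sides of each line, cap mesenchyme genes lie above the Tcf21 line, all 7 macrophage genes lie below the Hic1 line, and helix-loop-helix and HIC1 partner genes lie around 0.

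Macrophage, cap mesenchyme and some erythroid markers were low alongside the members. No endothelial marker measured on every array was called by limma over all 3 arrays, though some measured on fewer arrays were low. All 7 measured macrophage and leukocyte genes had a mean below that of Hic1, and 6 of 7 fell by limma. Of all 3915 genes, 1.4% fell and 1.38% rose. The cell type lists were chosen with earlier results of these data known, and how far that choice raised their shares was not tested. The median of the macrophage and leukocyte list was -1.95, -1.98 and -2.02 on arrays 1, 2 and 3. Of 4 measured erythroid genes 2 fell, with medians of -1.08, -1.20 and -1.29. Of 8 cap mesenchyme genes 3 fell, Crym, Wt1 and Uncx, with medians of -1.23, -0.75 and -0.97. Without array 1 or array 2, 6 and 5 cap mesenchyme genes were lower, where 738 and 70 of all 3915 genes were. Without array 1, 1 cap mesenchyme gene was also higher, where 1080 of all genes were. The 12 endothelial genes gave 0 calls by limma (2 lower at an unadjusted p below 0.05, 0 by the ordinary statistic after adjustment) and a median of -0.19. Of their means, 11 were negative and 1 positive. Without array 1, 1 endothelial gene was lower, where 738 of all 3915 genes were. Among genes with values on at least 2 arrays, 1 was lower, where 80 of 4745 genes were. Cdh5 was -2.08 and -1.28 on arrays 2 and 3. On array 3 alone, Pecam1 was -1.46 and Sox17 -0.056. Of 9 ureteric epithelium genes 5 rose, Gata3 and Krt8 among them, with medians of 1.60, 2.00 and 2.09; Ret had no value. The part of these cells in the ratios of Tcf21 and Hic1 was not tested.

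Genes beside the members on the chromosome had few values. Among the 6 annotated genes on either side of Tcf21 in the GRCm38.p6 order, Tbpl1 alone had values, at -0.65, -0.45 and -0.28 on arrays 1, 2 and 3, and Eya4 was on the array without one. Among those around Hic1, Dph1 alone had values, at -0.17, 0.32 and 0.47, and Smg6 was on the array without one. Neither measured neighbour was as low as the member beside it on any array.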

How the data were processed

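RNA of GFP+ and GFP- kidney cells was compared on 3 two-colour Mouse Compugen oligonucleotide arrays. Per the labels, images were read with Imagene 5.5, the control channel was adjusted by a Lowess curve (20% of the data per local fit) with a floor of 10; amplified RNA was labelled through amino allyl groups. The deposited values are log2 ratios: taken as powers of 2, 99.97% came out as whole thousandths to within 0.01, and as powers of e 2.37% did. The titles call the table filtered, by a rule not given in the sources used here; 15293 of 21819 gene features had no value, and 883 controls and blanks were left out. The arrays had values for 5179, 4980 and 6187 gene features, with medians of -0.044, 0.094 and 0.062. No intensities were used; having 3 arrays limits precision.

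The platform annotation gave 16656 gene probes 1 symbol and 137 several, and left 5026 without; symbols were updated through gene identifiers to RefSeq GRCm38.p6 for 15970 probes. Probes with several symbols or none were not named. Each gene is the mean of its probes with values on all 3 arrays. An intercept-only limma model (3.58.1, R 4.3.3, lmFit and eBayes, two-sided) set mean ratios against 0 over 3915 genes, calling Benjamini-Hochberg adjusted p below 0.05. The fit was tested on simulated data with independent noise on 3 arrays. Noise shared between arrays and fits on 2 arrays were not covered. Errors are SDs over the arrays. The members and all 14 gene lists were chosen with earlier results of these data known, and the members are left out of list counts. Named genes are the members, the 5 genes nearest to each, the list members past the threshold or of largest mean, factors on 1 or 2 arrays, and some fixed regulators; any other gene named, such as chromosome and rank neighbours, was chosen after its values were seen. Alternatives were median centring, quantile normalization, leaving out each array, averaging arrays 2 and 3, genes with values on at least 2 arrays, the probe of largest mean, and an ordinary one-sample statistic.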

Additional observations from a re-analysis of the deposited data

How the results depend on the processing

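Over the 8 alternatives run for them, the means ran from -2.11 to -1.76 for Tcf21 and from -1.31 to -0.88 for Hic1. Each member had 1 probe and a negative value on every array. Leaving out or averaging arrays thus could not change the sign of their means. The choice of probe and the fit of genes with values on at least 2 arrays could not move these means. Over all genes, 54 were higher and 55 lower. Leaving out 1 array gave 23 to 1080 higher and 51 to 738 lower, the highest of each without array 1. Averaging arrays 2 and 3 gave 29 higher and quantile normalization gave 76 higher and 84 lower. The ordinary one-sample statistic gave 1 higher and 0 lower, and 0 in each list. Of mesenchymal transcription factors 1 was lower, with 1 to 3 on leaving out 1 array and 5 among genes with values on at least 2 arrays; 0 were higher, and 2 without array 1. Cap mesenchyme gave 3 lower, 5 under median centring or quantile normalization and 4 to 6 on leaving out 1 array. Of podocyte genes 2 were lower, with 1 to 3 on leaving out 1 array and 1 on averaging arrays 2 and 3; 3 were lower by quantile normalization. Stromal matrix and mural genes gave 8, and 7 to 11 on leaving out 1 array. The cause of these shifts was not tested. Each ratio already pairs both fractions on 1 array, so the fit against 0 is the paired comparison, and with 1 group there is no further block to add. The authors' filter limits what was measured, since 3915 of 15096 genes on the array had values on all 3.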
